A study of Sus scrofa with 21 samples.

Results

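The 7 genes described here, CDH1, EPCAM, CLDN3, CLDN7, KRT8, MAL2 and CDS1, are expressed by epithelial cells and were measured in the uterine endometrium of Large White sows around implantation. They were taken as a named list of epithelial junction and keratin genes, and every probe whose RefSeq accession belongs to one of them was used. This gave 27 of the 43603 probes on the array, and 7 of the 2389 genes that could be named. EPCAM had 16 probes, KRT8 and MAL2 had 3 each, CDH1 had 2, and CLDN3, CLDN7 and CDS1 had 1 each. Probes of 1 gene share their transcript, so they are not replicates of a condition.

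The study used 21 single-colour arrays in 7 groups of 3. Pregnant sows, inseminated during heat, were killed on day 13, 18 or 24, 3 sows on each day, and endometrium was taken where a conceptus lay (attachment site) and from the stretches in between (inter-site). The remaining group consisted of 3 non-pregnant sows treated with inactivated sperm and killed on day 13, with tissue from comparable places. There were no non-pregnant sows for days 18 and 24, so later days are compared only with earlier days of pregnancy. The labels do not say which arrays share a sow, and an attachment-site array and an inter-site array of the same day can come from the same animal. P-values therefore measure the spread between the arrays of a group.

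The pig conceptus does not invade the uterine wall. Its outer layer, the trophectoderm, attaches to the luminal epithelium, and both are sheets of polarised cells held together by adherens and tight junctions. E-cadherin, encoded by CDH1, joins neighbouring cells at adherens junctions through catenins, and EPCAM is an epithelial cell adhesion glycoprotein that is known to associate with CLDN7. Claudins such as CLDN3 and CLDN7 form the strands of tight junctions that seal the space between cells. KRT8 is a type II keratin of the intermediate filaments of simple epithelia. MAL2 is a membrane protein of transcytosis to the apical surface, known from human liver cells. CDS1 is a CDP-diacylglycerol synthase, a lipid enzyme and no junction protein. Since trophectoderm and uterine epithelium both carry such transcripts, the arrays cannot assign a signal to one of them, and in whole tissue fewer epithelial cells and less RNA per epithelial cell cannot be told apart.

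On the Sscrofa11.1 assembly, RefSeq places CDH1 at chr6:18075487-18155986, EPCAM at chr3:93169800-93185221 and CLDN3 at chr3:11019073-11020102. CLDN7 lies at chr12:52612517-52628376, KRT8 at chr5:18172423-18180277, MAL2 at chr4:19593536-19658695 and CDS1 at chr8:133959250-134041258. These are whole-gene intervals, and where each probe falls within its gene was not analysed here.

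Each level is a log2 signal minus the 75th percentile of the same array, so a level of 0 equals that percentile. Levels of different genes come from different probes and are not ranked against each other. All 27 probes were well above background on all 21 arrays, and none was saturated. A difference is a log2 fold change with its standard error (SE), from limma fitted over 30091 probes. A gene was called when its Benjamini-Hochberg adjusted p over those probes was under 0.05. A gene with more than 1 probe is represented by its brightest on average.

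There were 3 arrays that stood apart from their groups, namely non-pregnant replicate 3, day 13 inter-site replicate 1 and day 24 inter-site replicate 3. Over all probes these correlated with each other at 0.968 to 0.988 and with the other arrays of their own groups at 0.934 to 0.947. DKK1, a secreted WNT inhibitor, was at -3.23 and -6.13 on the pregnant arrays among them, against 3.54 to 5.68 on the other arrays of pregnant sows and -5.37 to -4.62 on the non-pregnant arrays, so these 2 inter-site arrays went against their labels at that gene. Results that rest on these arrays are given with and without them. The number of arrays limits the precision.

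**Figure D1:**
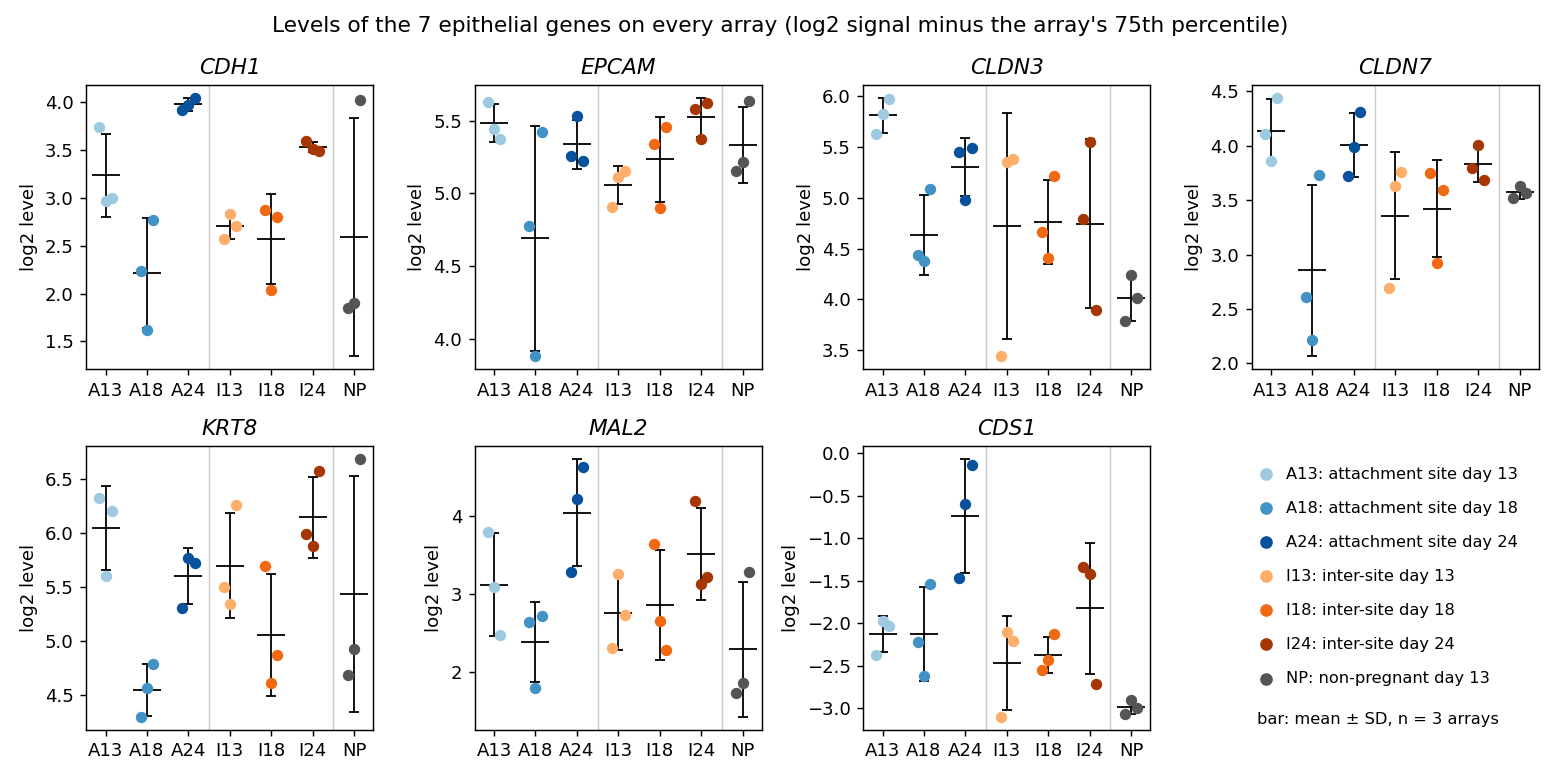
Levels of the 7 epithelial genes on every array, as log2 signal minus the array's 75th percentile, in attachment sites (A) and inter-sites (I) of days 13, 18 and 24 and in non-pregnant endometrium (NP). Points are arrays, horizontal bars are means and whiskers are SDs of 3 arrays. CDH1 sits between 3.92 and 4.04 at day 24 attachment sites and between 1.62 and 2.77 at day 18 attachment sites.

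CDH1 was at 3.73, 2.97 and 3.00 at day 13 attachment sites, at 2.24, 1.62 and 2.77 on day 18 and at 3.92, 3.97 and 4.04 on day 24. At inter-sites it was at 2.57, 2.84 and 2.71 on day 13, at 2.88, 2.03 and 2.80 on day 18 and at 3.60, 3.51 and 3.49 on day 24. Non-pregnant endometrium had 1.85, 1.90 and 4.03. The day 24 arrays of both sites lay above every day 18 array, and the non-pregnant group was split, with replicate 3 near the top of all 21 arrays. By group mean the order ran from attachment sites of day 24 (3.98 ± 0.07) over inter-sites of day 24, attachment sites and inter-sites of day 13, non-pregnant endometrium (2.59 ± 1.24) and inter-sites of day 18 to attachment sites of day 18 (2.21 ± 0.57; SD, n = 3). Of the 6 steps between neighbours in this order, the first and the third exceeded the larger SD of the groups they separate.

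EPCAM was at 5.63, 5.44 and 5.37 at attachment sites of day 13, at 4.77, 3.88 and 5.42 on day 18 and at 5.26, 5.53 and 5.22 on day 24. Its inter-site levels were 4.91, 5.11 and 5.16 on day 13, 5.34, 4.90 and 5.46 on day 18 and 5.58, 5.37 and 5.62 on day 24, and its non-pregnant levels were 5.16, 5.21 and 5.63. Outside day 18 attachment sites all arrays lay between 4.90 and 5.63, and no step between neighbouring group means exceeded the larger SD of the pair. The lowest of all arrays was replicate 2 of the day 18 attachment sites.

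CLDN3 was at 5.63, 5.82 and 5.97 at attachment sites of day 13, at 4.44, 4.38 and 5.09 on day 18 and at 5.45, 4.97 and 5.49 on day 24. At inter-sites it was at 3.45, 5.35 and 5.38 on day 13, at 4.66, 4.40 and 5.22 on day 18 and at 4.79, 5.55 and 3.90 on day 24. Non-pregnant endometrium had 3.78, 4.24 and 4.02. The low inter-site arrays, day 13 replicate 1 and day 24 replicate 3, are those that stood apart, and they lay within or below the non-pregnant range. Attachment sites of day 13 had the highest mean (5.81 ± 0.17) and non-pregnant endometrium the lowest (4.01 ± 0.23; SD, n = 3), and no array of one reached the other.

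CLDN7 was at 4.11, 3.86 and 4.44 at attachment sites of day 13, at 2.61, 2.22 and 3.73 on day 18 and at 3.73, 3.99 and 4.31 on day 24. Inter-sites had 2.69, 3.63 and 3.76 on day 13, 3.75, 2.92 and 3.60 on day 18 and 3.80, 4.01 and 3.68 on day 24, and non-pregnant endometrium had 3.52, 3.63 and 3.57. Replicates 1 and 2 of the day 18 attachment sites were the lowest of all 21 arrays, while replicate 3 of that group lay near the level of the other groups.

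KRT8 was at 6.32, 5.60 and 6.21 at attachment sites of day 13, at 4.30, 4.56 and 4.78 on day 18 and at 5.30, 5.77 and 5.72 on day 24. At inter-sites it was at 5.50, 5.34 and 6.26 on day 13, at 5.69, 4.61 and 4.87 on day 18 and at 5.99, 5.88 and 6.57 on day 24. Non-pregnant levels were 4.69, 4.92 and 6.69, again with replicate 3 far above the other arrays of its group. All 3 day 18 attachment-site arrays lay below all day 13 and day 24 arrays of pregnant sows, from either site.

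MAL2 was at 3.80, 3.09 and 2.48 at attachment sites of day 13, at 2.65, 1.81 and 2.72 on day 18 and at 3.29, 4.23 and 4.63 on day 24. Its inter-site levels were 2.31, 3.26 and 2.74 on day 13, 3.65, 2.65 and 2.29 on day 18 and 4.19, 3.13 and 3.23 on day 24, and its non-pregnant levels were 1.74, 1.86 and 3.29. Day 24 held the highest mean at either site, 4.05 ± 0.69 at attachment sites and 3.52 ± 0.59 at inter-sites (SD, n = 3). No step between neighbouring group means exceeded the larger SD.

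CDS1 was at -2.37, -1.98 and -2.03 at attachment sites of day 13, at -2.22, -2.62 and -1.54 on day 18 and at -1.46, -0.59 and -0.14 on day 24. Inter-sites had -3.10, -2.10 and -2.21 on day 13, -2.55, -2.44 and -2.13 on day 18 and -1.34, -1.42 and -2.71 on day 24. Non-pregnant endometrium had -3.07, -2.90 and -2.99. Its day 18 attachment-site mean (-2.13 ± 0.55) was the same as its day 13 mean (-2.13 ± 0.21; SD, n = 3), while the means of the other 6 genes were lower on day 18. Replicate 3 of the day 24 inter-sites, one of the arrays that stood apart, was the lowest of its group.

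At attachment sites the mean of every one of the 7 genes was higher on day 24 than on day 18, and CDH1 and CDS1 passed the test. CDH1 rose by 1.76 (SE 0.45), 3.40-fold, with an adjusted p of 0.0295 in limma. CDS1 rose by 1.39 (SE 0.39), 2.63-fold (adjusted p = 0.0466, limma). In this comparison 5.62% of all tested probes were called, 3.85% as higher and 1.76% as lower. The median over the 7 genes was 1.15, against -0.00 over all probes tested.

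The other 5 genes did not pass. MAL2 was at 1.66 (SE 0.50, adjusted p = 0.0620, limma), CLDN7 at 1.15 (SE 0.35, adjusted p = 0.0618), KRT8 at 1.05 (adjusted p = 0.156), EPCAM at 0.65 (adjusted p = 0.183) and CLDN3 at 0.67 (adjusted p = 0.393). Every day 24 array lay above every day 18 array for CDH1, KRT8, MAL2 and CDS1, which was so for 15.2% of all tested probes. Among the 3 day 18 arrays, replicate 3 was the highest for all 7 genes.

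With the 3 arrays that stood apart left out, which are of other groups and leave both means as they are, 5 of the 7 genes were called, CLDN7, KRT8 and MAL2 in addition (adjusted p = 0.0472, 0.0492 and 0.0394, limma). Calls rose over all 30091 probes too, to 2663 from 1690 with those arrays. Within the 1 slide that held both groups, with 1 array of day 24 and 2 of day 18, the differences were 1.85 for CDH1, 1.94 for CDS1, 2.37 for MAL2, 1.34 for CLDN7, 1.05 for KRT8, 0.76 for CLDN3 and 0.57 for EPCAM. Fitted with slide as a block, CDH1 was at 2.03 (adjusted p = 0.0833) and CDS1 at 1.43 (adjusted p = 0.152), and neither was called. The CDH1 call also ended with normexp background correction (1.49, adjusted p = 0.124) and without any one of 5 of the 6 arrays compared (adjusted p up to 0.110, without day 24 replicate 3). The CDS1 call ended in the same way with normexp (0.99, adjusted p = 0.191) and without day 18 replicate 1 or 2 or day 24 replicate 2 or 3 (adjusted p up to 0.210). It also ended with quantile normalization (adjusted p = 0.0536), in the authors' values (adjusted p = 0.0534) and with no filter on dim probes (adjusted p = 0.0730).

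The second CDH1 probe was at -2.71, -2.45 and -2.53 at attachment sites of day 13, at -2.95, -3.53 and -3.29 on day 18 and at -1.98, -1.23 and -0.92 on day 24. It rose by 1.88 (SE 0.31) from day 18 to day 24, with an adjusted p of 0.00485. The 16 EPCAM probes lay between 0.51 and 0.95, and none was called. Of the 3 MAL2 probes, 1 was called, at 1.96 (adjusted p = 0.0290), and the KRT8 probes lay between 1.05 and 1.33. In all, 4 of the 27 probes were called, and all 27 had a positive difference. Across arrays the EPCAM probes correlated with each other at 0.687 or more (median 0.968), and the CDH1 probes at 0.804.

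**Figure D2:**
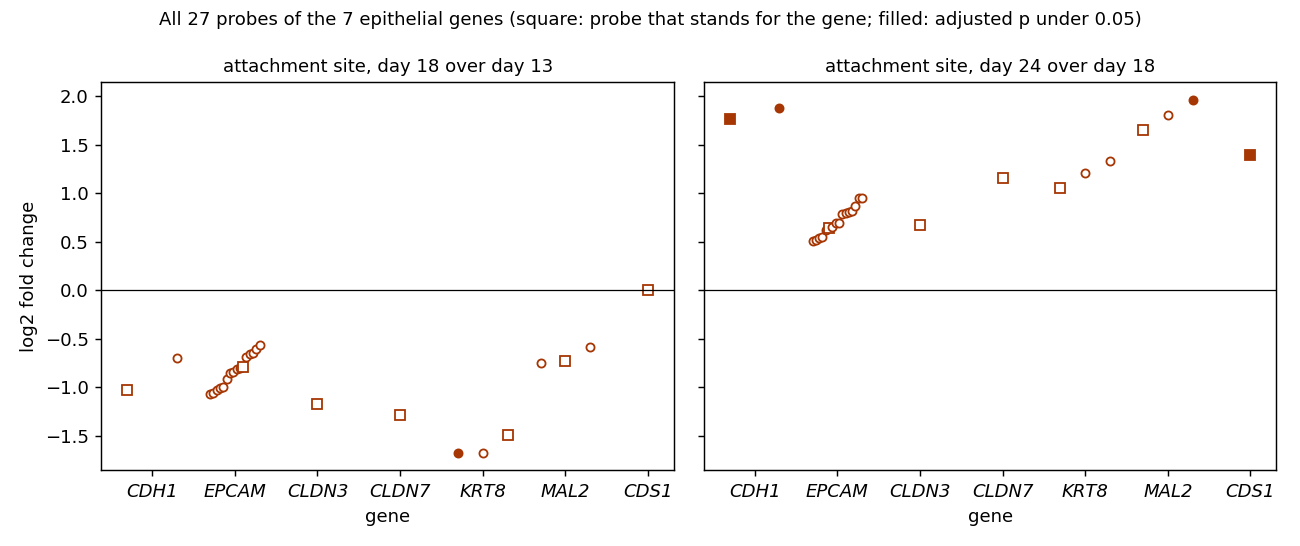
Log2 fold change of each of the 27 probes at attachment sites, day 18 over day 13 (left) and day 24 over day 18 (right). Squares are the probes that stand for a gene, circles are its other probes, and filled symbols have an adjusted p under 0.05. All probes but that of CDS1 lie below 0 on the left, and all 27 lie above 0 on the right.

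From day 13 to day 18 at attachment sites, 6 of the 7 genes had a lower mean and none was called by its main probe. KRT8 was at -1.50 (SE 0.43, adjusted p = 0.0768, limma), CLDN7 at -1.28 (SE 0.35, adjusted p = 0.0643), CLDN3 at -1.17 (adjusted p = 0.154), CDH1 at -1.02 (adjusted p = 0.197), EPCAM at -0.79 (adjusted p = 0.129) and MAL2 at -0.73 (adjusted p = 0.420). CDS1 was at 0.00 (adjusted p = 0.9995). The comparison called 1.79% of all tested probes, and at an unadjusted p under 0.05 it held 5 of the 7 genes and 21.3% of all probes. A second KRT8 probe was called at -1.67 (adjusted p = 0.0467), and the 3 KRT8 probes lay between -1.67 and -1.50.

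Every day 18 array lay below every day 13 array for CDH1, CLDN3, CLDN7 and KRT8, as for 12.6% of all tested probes. Without the 3 arrays that stood apart, which are of other groups, CLDN3, CLDN7 and KRT8 were called (adjusted p = 0.0303, 0.0427 and 0.0178). That fit called 1561 of 30091 probes, against 540 with those arrays. Leaving out day 18 attachment-site replicate 3 gave calls for EPCAM (-1.16, adjusted p = 0.0125), CLDN7 (-1.72, adjusted p = 0.00637) and KRT8 (-1.61, adjusted p = 0.0442). On the slide that held 1 array of each group, KRT8 was at -1.91, CLDN7 at -1.83, CLDN3 at -1.53, CDH1 at -0.76, EPCAM at -0.60, CDS1 at -0.19 and MAL2 at 0.17.

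Day 24 over day 13 at attachment sites was added after the data were seen. CDS1 was higher by 1.39 (SE 0.39, 2.63-fold, adjusted p = 0.0239, limma) and was the 1 gene called, where 15.7% of all tested probes were called. It was not called with slide as a block (1.45, adjusted p = 0.0664) or with normexp (1.03, adjusted p = 0.0900), and within slides of 1 array of each day it was at 0.91 and 1.38. The call also ended without any one of 5 of the 6 arrays compared (adjusted p up to 0.123, without day 24 replicate 3). CDH1 was at 0.74 (adjusted p = 0.282), with its second probe called at 1.19 (adjusted p = 0.0180), and MAL2 was at 0.93 (adjusted p = 0.228). The remaining 4 genes were between -0.50 for CLDN3 and -0.13 for CLDN7. The 3 comparisons along the days share their arrays in pairs, so their values are not independent of each other.

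At inter-sites no gene was called between days. From day 13 to day 18 the 7 differences lay between -0.64 for KRT8 and 0.18 for EPCAM, and 5 were positive. None had an unadjusted p under 0.05, and 0.00665% of all tested probes were called. Without the 3 arrays that stood apart EPCAM was at 0.10 and the others between -0.74 for KRT8 and -0.13 for MAL2, none called. From day 18 to day 24 KRT8 was at 1.09 (SE 0.43, adjusted p = 0.266) and CDH1 at 0.96 (SE 0.45, adjusted p = 0.346), and the other 5 were between -0.01 for CLDN3 and 0.65 for MAL2. Both KRT8 and CDH1 had all day 24 arrays above all day 18 arrays, which was so for 11.5% of probes, and both had an unadjusted p under 0.05, as had 14.1% of probes. Of all tested probes 0.143% were called. Without the 3 arrays that stood apart, KRT8 was at 0.88 and CDH1 at 0.98 there, and CDS1 at 0.99 against 0.55 with them. For day 24 over day 13, added after the data were seen, the largest value was 0.83 for CDH1, and 0.246% of all tested probes but none of the 7 genes were called. None of the 7 had an unadjusted p under 0.05 there, as had 13.9% of all probes. In that comparison CDH1 was at 0.78 without the 3 arrays that stood apart. CLDN3 was at -0.20 without them, against 0.02 with them. Within slides of 1 array of each day, day 24 over day 18 was at 0.72 and 1.48 for CDH1 and at 0.29 and 1.27 for KRT8.

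**Figure D3:**
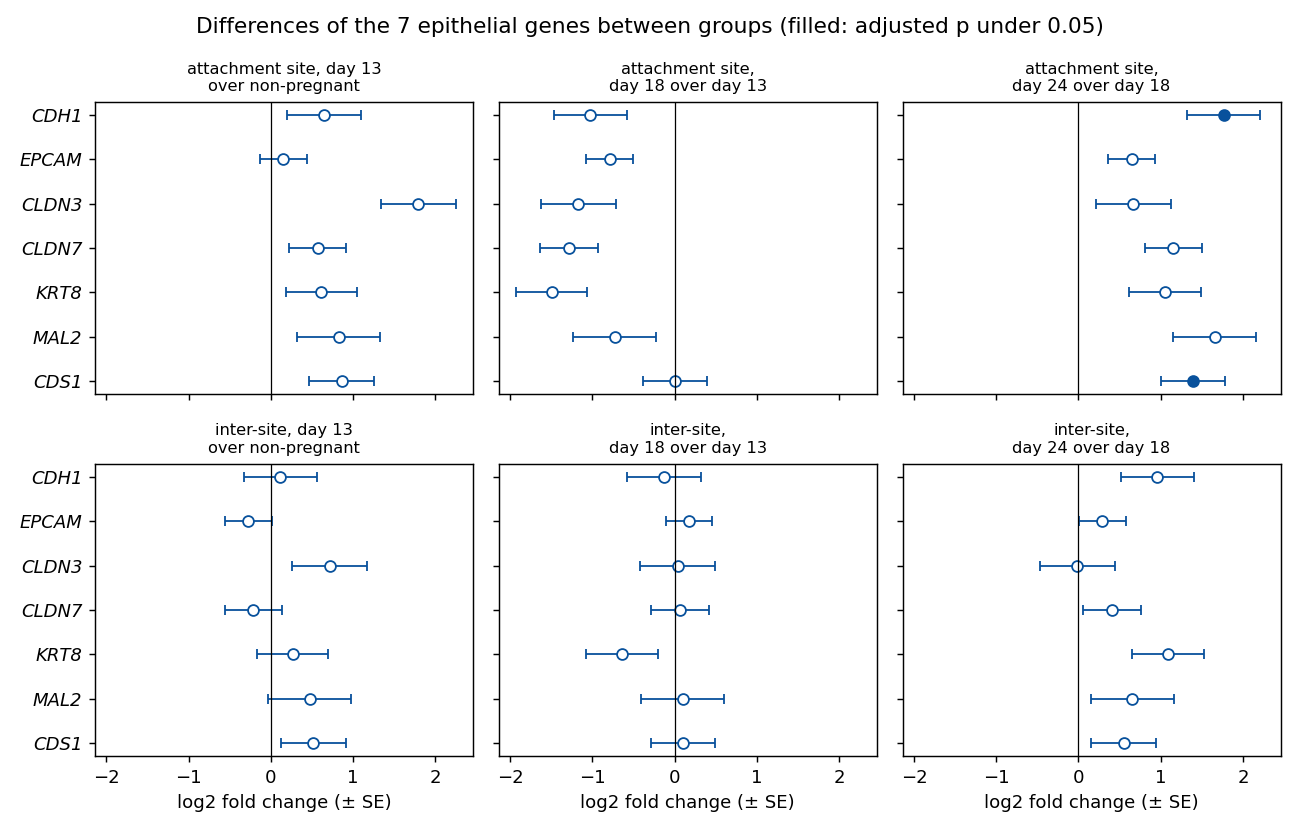
Log2 fold changes of the 7 epithelial genes with SE, at attachment sites (top) and inter-sites (bottom), for day 13 over non-pregnant, day 18 over day 13 and day 24 over day 18. Filled points have an adjusted p under 0.05. The 2 filled points are CDH1 at 1.76 and CDS1 at 1.39, both for attachment sites of day 24 over day 18.

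Attachment sites of day 13 were set against non-pregnant endometrium for the effect of pregnancy on that day. All 7 means were higher at attachment sites and none was called, where 1.77% of all tested probes were called. CLDN3 was at 1.79 (SE 0.45, 3.47-fold, adjusted p = 0.0529, limma), CDS1 at 0.86 (SE 0.39, adjusted p = 0.230), and the other 5 between 0.15 for EPCAM and 0.82 for MAL2. CLDN3 and CDS1 had an unadjusted p under 0.05, as had 20.3% of all probes. Attachment-site arrays were all above the non-pregnant arrays for CLDN3, CLDN7 and CDS1, as for 14.3% of probes.

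Non-pregnant replicate 3, one of the arrays that stood apart, had 4.03 for CDH1, 6.69 for KRT8 and 3.29 for MAL2, while the other arrays of that group had at most 1.90, 4.92 and 1.86. Without the 3 arrays that stood apart CDH1 was at 1.36 (adjusted p = 0.0289), CLDN3 at 1.80 (adjusted p = 0.00563), KRT8 at 1.24 (adjusted p = 0.0501) and MAL2 at 1.32 (adjusted p = 0.145), which called 2 of the 7 genes. That fit called 1787 of 30091 probes, against 534 with those arrays. Within slides, each with 1 array of each group, CLDN3 was at 1.39 and 1.95, CDS1 at 0.53 and 0.96 and CLDN7 at 0.48 and 0.87. CDH1 was at 1.84 on one of them and at -1.03 on the one that held non-pregnant replicate 3, and KRT8 at 1.40 and -0.48. The direction was the same on both slides for CLDN3, CLDN7 and CDS1, and opposite for CDH1, KRT8, MAL2 and EPCAM.

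Inter-sites of day 13 over non-pregnant endometrium called none of the 7 genes and 0.452% of all tested probes in limma. At an unadjusted p under 0.05 these were 0 genes and 17.6% of probes. CLDN3 was at 0.71, CDS1 at 0.52, MAL2 at 0.47, KRT8 at 0.26, CDH1 at 0.11, CLDN7 at -0.21 and EPCAM at -0.28. Without the 3 arrays that stood apart CLDN3 was at 1.36 and was called (adjusted p = 0.0449, limma), CDH1 was at 0.90 (adjusted p = 0.186) and MAL2 at 1.20 (adjusted p = 0.256). That fit called 1007 of 30091 probes, against 136 with those arrays. Both comparisons with non-pregnant endometrium use the same 3 control arrays.

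Attachment sites were compared with inter-sites on each day for an effect of the conceptus at the place of contact. None of the 7 genes was called on any day, and of all tested probes 0% were called on day 13, 0% on day 18 and 0.279% on day 24. On day 13 all 7 means were higher at attachment sites by the main probes, while the second CDH1 probe was at -0.28 and a MAL2 probe at -0.02. The main probes were led by CLDN3 at 1.08 (95% interval 0.12 to 2.04, adjusted p = 0.580) and CLDN7 at 0.78 (0.04 to 1.52, adjusted p = 0.580). These 2 had an unadjusted limma p under 0.05, as had 8.10% of probes. Without the 3 arrays that stood apart they were at 0.44 and 0.45, and on the slide with 1 array of each group at 0.62 and 0.81.

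On day 18, where no slide held both groups, 6 of 7 means were lower at attachment sites, between -0.57 for CLDN7 (95% interval -1.31 to 0.17) and -0.13 for CLDN3 (-1.08 to 0.83). CDS1 was at 0.25, and no gene had an unadjusted p under 0.05 (4.69% of all probes). On day 24 CDS1 was at 1.09 (95% interval 0.26 to 1.92, adjusted p = 0.423), with 0.65 when the arrays that stood apart were left out. On the slides that held both groups it was at 2.57 and 0.83, the first with day 24 inter-site replicate 3. The main CDH1 probe was higher on every attachment-site array than on every inter-site array (0.44, 95% interval -0.50 to 1.38), as were 6.26% of probes. The second CDH1 probe overlapped, at -1.98 to -0.92 at attachment sites and -1.89 to -1.29 at inter-sites. KRT8 was lower on every attachment-site array (-0.55, 95% interval -1.46 to 0.37), as were 7.47% of probes. EPCAM was at -0.19 and CLDN7 at 0.18.

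Whether the difference between sites changed with the day was tested directly. Between day 13 and day 18 it moved down for all 7 genes by their main probes, most for CLDN7 (-1.35, SE 0.49, unadjusted p = 0.0145, adjusted p = 0.599 in limma). CLDN3 was at -1.21 and EPCAM at -0.97 (SE 0.40, unadjusted p = 0.0283, adjusted p = 0.599 in limma), and 0% of probes were called. The second CDH1 probe was at 0.16, against -0.89 for the main one. Without the 3 arrays that stood apart CDS1 was at 0.22, and the others were between -1.01 for CLDN7 and -0.57 for CLDN3. Between day 18 and day 24 the changes lay between -0.04 for KRT8 and 1.003 for MAL2, no gene was called and 0.00997% of probes were. Leaving out the 3 arrays that stood apart put these changes between 0.18 for KRT8 and 0.86 for MAL2, with CDS1 at 0.40. The rises at attachment sites from day 18 to day 24 were therefore not shown to differ from the inter-site values. Over the mean of the 3 days, CDS1 was at 0.56 (SE 0.23, adjusted p = 0.426) and the others between -0.24 for KRT8 and 0.50 for CLDN3. Of all probes 0.00332% were called. Without the 3 arrays that stood apart CDS1 was at 0.31 and CLDN3 at 0.15, and the others were between -0.20 for KRT8 and 0.17 for CDH1.

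The 7 genes varied together across the 21 arrays to very different degrees. As a description, since arrays share slides and groups, CDH1 and MAL2 correlated at r = 0.842 (rho = 0.866), EPCAM and CLDN7 at r = 0.797 (rho = 0.540) and CDH1 and KRT8 at r = 0.729 (rho = 0.713). The lowest pairs were KRT8 with CDS1 (r = 0.0985) and KRT8 with CLDN3 (r = 0.220). CLDN3 correlated best with CLDN7 (r = 0.646) and CDS1 with MAL2 (r = 0.697). Each gene spanned 1.75 (EPCAM) to 2.96 (CDS1) on the log2 scale, and group means accounted for 46.9% (EPCAM) to 71.7% (CDS1) of its variance. Group means of so few arrays account for part of the variance even without a group difference, and the share over all probes is not given. Day 18 attachment-site replicate 2 was the lowest of all arrays for 3 of the genes, CDH1, EPCAM and CLDN7.

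Transcripts of other tissues moved with these levels in part. Of 10 listed smooth muscle markers 5 were on the array, ACTA2, DES and CNN1 among them, and all 5 were above background on at least 1 array. The median of that list, each gene relative to its mean over the arrays, was 3.52 on day 18 attachment-site replicate 2, the array lowest for 3 genes, and -0.83 and 0.96 on the other 2 arrays of that group. It was -1.88 to 2.09 at attachment sites of day 13 and -1.15 to 0.39 on day 24. Non-pregnant replicates 1 and 2 had 2.87 and 2.73, and replicate 3, high in CDH1, KRT8 and MAL2, had -1.93. Not all arrays went this way. Day 24 inter-site replicate 2 had 2.13 with a mean relative level of the 7 genes of 0.42. Day 13 inter-site replicate 1 had -1.77 with a mean of -0.68.

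The summed smooth muscle signal, in multiples of the 75th percentile, ranged from 37.4 to 638 at attachment sites of day 13, from 83.3 to 1598 on day 18 and from 67.7 to 257 on day 24. At inter-sites it ranged from 34.4 to 54.6, from 63.0 to 605 and from 43.8 to 652 on those days, and in non-pregnant endometrium from 36.7 to 1334. The mean relative level of the 7 genes correlated with the list's median at r = -0.445 (rho = -0.306) over the 21 arrays. The list had 0 of 5 genes called for day 24 over day 18 at attachment sites (median -1.81) and 1 of 5 called lower for day 13 over non-pregnant (median -1.84). Its part in the differences of the epithelial genes was not tested.

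Conceptus and trophoblast markers rose at attachment sites of day 24, where CDH1 and CDS1 were highest. Of 13 listed genes 9 were on the array, namely IFNG, IL1B2, IL1B, CYP19A3, CYP17A1, HSD3B1, GATA3, TFAP2C and AFP. Of the 9, 5 were called higher over day 18 (median 2.34). The aromatase gene CYP19A3, 1 of the 9, was above background on the 3 day 24 attachment-site arrays alone, at -3.69, -2.27 and -2.37. The list's median was 1.30, 2.28 and 2.66 on the day 24 attachment-site arrays, against 0.34, 0.28 and -0.73 on those of day 18, and 1.06 on day 24 inter-site replicate 2. Its summed signal ranged from 11.2 to 33.2 on day 24 and from 2.73 to 10.1 on day 18. Over all 21 arrays the 7 genes' mean correlated with the list at r = 0.405 (rho = 0.305), and how much of the day 24 signal came from conceptus tissue was not tested.

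Among the other tissue markers, stromal, endothelial and leukocyte lists correlated with the 7 genes' mean at r = -0.0791, 0.248 and -0.00870. The stromal list (3 of 10 on the array, DCN among them) had a median of 0.19 for day 24 over day 18 at attachment sites with 0 of 3 called. The leukocyte list had 1 of 5 called higher there with a median of -1.14. The endothelial list had 0 of 4 called with a median of 0.48, and the single ciliated-cell marker on the array was at 0.25, not called. The epithelial list used as a check of the tissue held the 7 genes themselves with CLDN4 and OCLN, 9 of 15 listed, and all 9 were above background on at least 1 array.

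**Figure D4:**
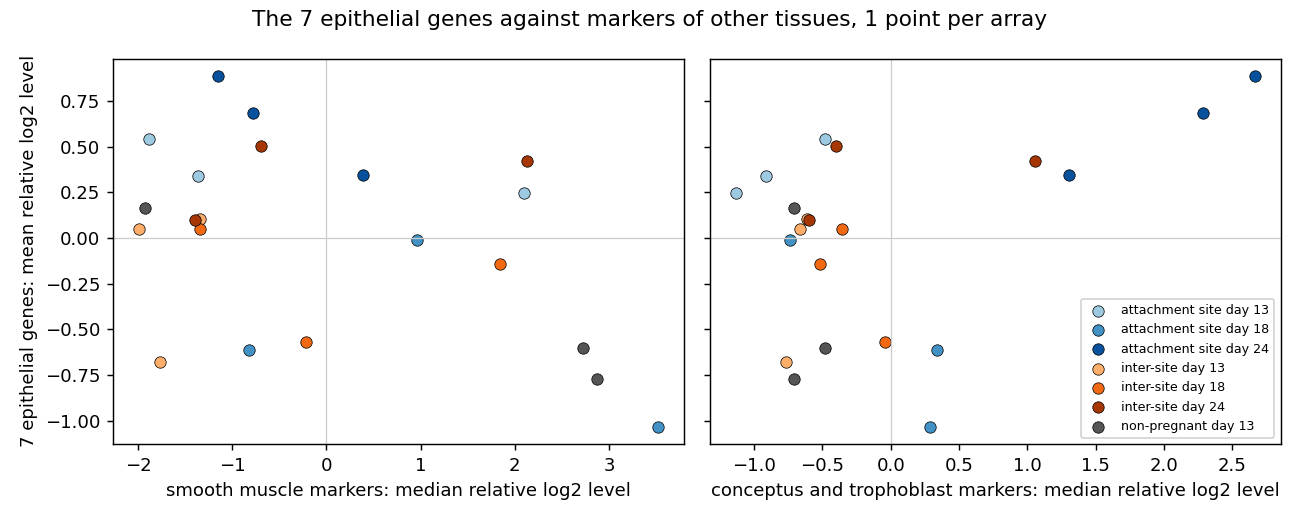
Mean relative log2 level of the 7 epithelial genes against the median relative log2 level of smooth muscle markers (left) and of conceptus and trophoblast markers (right), 1 point per array, coloured by group. Day 18 attachment-site replicate 2 is at 3.52 for smooth muscle and -1.03 for the 7 genes, and the 3 day 24 attachment-site arrays are at 1.30 to 2.66 for conceptus markers and 0.34 to 0.89 for the 7 genes.

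Partners of the 7 genes were few on the array. Adherens junction partners had 5 of 10 listed genes on it and 4 tested, and 0 were called in any comparison. For day 24 over day 18, 3 of the 4 were positive at attachment sites (median 0.16) and 4 at inter-sites (median 0.22). For day 18 over day 13 at attachment sites 1 was positive (median -0.37). NECTIN2, a nectin adhesion receptor, was at 1.08 (SE 0.32, adjusted p = 0.0553, limma) for day 24 over day 18 at attachment sites and at -1.05 (adjusted p = 0.0855) for day 18 over day 13. CTNNB1, which encodes beta-catenin, the partner of E-cadherin, was at 0.31 and -0.25 in the same comparisons, neither called. No named desmosome gene and no keratin other than KRT8 from the lists was among the named probes.

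Of 30 listed tight junction genes besides the members, 17 were on the array and 13 were tested. For day 24 over day 18 at attachment sites 11 of the 13 had positive values with a median of 0.94, and 1 was called. That gene, PARD6B, encodes a cell polarity protein, and it rose by 1.16 (SE 0.25, adjusted p = 0.0155). Its levels averaged 0.27 ± 0.35 on day 24 and -0.89 ± 0.07 on day 18 (SD, n = 3). It was also higher on day 24 than on day 13, by 1.10 (adjusted p = 0.00804). F11R, the junctional adhesion molecule A gene, was at 0.95 (adjusted p = 0.0705), CLDN12 at 1.17 (adjusted p = 0.120), CLDN4 at 1.49 (adjusted p = 0.156) and OCLN, which encodes occludin, at 0.65 (adjusted p = 0.351). For day 18 over day 13, 3 of the 13 were positive with a median of -0.50 and 0 were called, and OCLN was at -1.31 (adjusted p = 0.0919).

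At inter-sites the tight junction list had a median of 0.50 for day 24 over day 18, with 11 of 13 positive and 0 called, and of -0.33 for day 18 over day 13, with 2 positive. The medians of all tested probes in these comparisons were between -0.07 and 0.03.

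Other epithelial genes changed in both directions. MUC20, a membrane mucin, fell by 2.86 (SE 0.71, adjusted p = 0.0495) at attachment sites of day 13 over non-pregnant endometrium, opposite in sign to all 7 epithelial genes. It then rose by 3.57 (adjusted p = 0.0107) from day 18 to day 24, with levels of 3.09 ± 0.57 against -0.48 ± 0.70 (SD, n = 3). SLC44A4, a choline transporter-like protein, rose by 0.99 (SE 0.27, adjusted p = 0.0410) in the same interval. KLF5, a transcription factor of epithelia, was higher by 3.02 (SE 0.71, adjusted p = 0.0414) at attachment sites of day 13 than in non-pregnant endometrium, at 1.56 ± 0.50 against -1.46 ± 0.89 (SD, n = 3). It was at -0.11 for day 24 over day 18, not called. These were 2 of 2 tested genes of the membrane list and 1 of 3 of the regulator list. The day 13 calls of MUC20 and KLF5 over non-pregnant endometrium did not hold once slide entered the fit. For that comparison 0 of all tested probes passed there, against 534 in the main fit. The non-pregnant group includes replicate 3, one of the arrays that stood apart, and values of MUC20 and KLF5 without it are not given.

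Enzymes around CDS1 in phosphatidate metabolism moved apart. AGPAT2, which makes phosphatidate, rose by 1.25 (SE 0.32, adjusted p = 0.0313) from day 18 to day 24 at attachment sites, and DGKA, a diacylglycerol kinase that also makes it, fell by 1.27 (SE 0.32, adjusted p = 0.0294). CDS2, the other CDP-diacylglycerol synthase gene, was at 0.38 and was not called. Over day 13, LPIN1 fell by 2.63 (SE 0.52, adjusted p = 0.00389) and LPIN2 rose by 1.09 (SE 0.30, adjusted p = 0.0235) on day 24, both phosphatidate phosphatases. In the first comparison 1 of 7 tested genes was called higher and 1 lower, and in the second likewise. Of 5 tested genes of a mesenchymal list, TGFBR1, a TGF-beta receptor, was called for day 24 over day 13, at 1.34 (adjusted p = 0.00548), and 0 were called for day 24 over day 18.

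**Figure D5:**
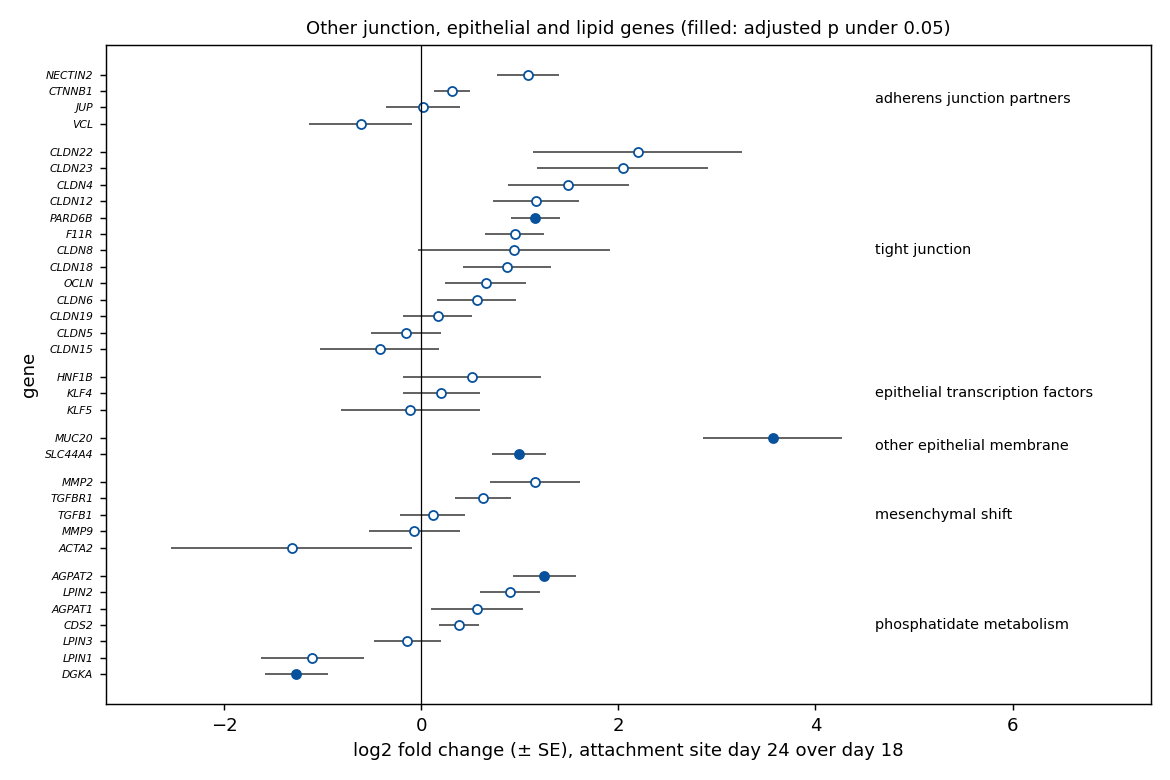
Log2 fold change with SE for each tested gene of the 6 lists of related genes, at attachment sites of day 24 over day 18. Filled points have an adjusted p under 0.05, namely PARD6B at 1.16, MUC20 at 3.57, SLC44A4 at 0.99, AGPAT2 at 1.25 and DGKA at -1.27.

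The named genes whose levels were most like the mean of the 7 over the 21 arrays, among 2002 genes, were LGALS3 (r = 0.931), TMEM59 (r = 0.896), ATP6V0E1 (r = 0.893), ARF1 (r = 0.878) and LRPAP1 (r = 0.876). LGALS3, which encodes galectin-3, averaged 5.97 ± 0.26, 4.81 ± 0.16 and 6.64 ± 0.35 at attachment sites of days 13, 18 and 24. It averaged 5.48 ± 0.45, 5.10 ± 0.47 and 6.21 ± 0.46 at inter-sites and 5.13 ± 0.61 in non-pregnant endometrium (SD, n = 3 each). Single genes had ARPC1A (r = 0.899 with CDH1), CAPN7 (0.859 with EPCAM), MAP2K1 (0.888 with CLDN3), DAZAP2 (0.920 with CLDN7), ATP1B1 (0.835 with KRT8), GPR39 (0.878 with MAL2) and LOC733635 (0.902 with CDS1) as their nearest. Without the 2 arrays farthest from the median, CAPN7 dropped to r = 0.678 with EPCAM, and the others were between 0.787 and 0.932. These are descriptions across arrays that share groups and slides, and the genes were picked as the highest among many.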

How the data were processed

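Per the file headers, the deposited spot intensity came from Agilent Feature Extraction 10.7.3.1 (10.7 per the submitters' processing notes), which subtracted background and detrended each array. The authors' deposited table of processed values is on the log2 scale and served as an alternative only. How it was made is not stated, and its columns for day 24 inter-site replicates 2 and 3 matched the scanner values of the other replicate. Control and outlier-flagged spots were left out, and spots of a probe were averaged. On an array 62.3% to 77.1% of probes were well above background.

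Levels, the log2 processed intensity with the 75th percentile of its array subtracted, were fitted over all 21 arrays with 7 group means in limma 3.58.1 under R 4.3.3 (lmFit, eBayes, tested on simulated data; 14 residual and 2.71 prior degrees of freedom). In the simulated data 17% of changes of log2 size 1 and 77% of those of size 2 were called. A difference that was not called is therefore not shown to be absent. Probes well above background throughout any 1 group were tested, and p-values were adjusted by Benjamini-Hochberg over all 30091. RefSeq accessions named the genes (5461 of 5779 such probes matched 1 symbol in a table of Sscrofa11.1).

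The members and gene lists were chosen with earlier results of these data known. The text names the 7 members, list genes called or with the smallest p, and the genes most correlated with the members. Alternatives were normexp (offset 50) on median spot intensity, where mean intensity had been planned, quantile normalization, the authors' values, no filter, slide or replicate number as a block, leaving out each array, other probes of a gene and, added after seeing the data, leaving out the 3 arrays that stood apart.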

Additional observations from a re-analysis of the deposited data

How the results depend on the processing

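No called difference of a member turned its direction under any alternative run, and 1600 of 1722 recomputed differences of members kept their direction and their side of the threshold. Another 76 changed sign, none of them called in either fit and each within 1 SE of 0 in at least one of them, while 23 lost and 23 gained a call. Counts of calls moved more. CDH1 and CDS1 at attachment sites of day 24 over day 18, the 2 members called in the planned comparisons, became 0 with normexp and with slide as a block, 1 with quantile normalization, the authors' values or no filter on dim probes, where CDS1 was lost, 5 without the 3 arrays that stood apart, and 0 to 4 when 1 array was left out. The one member called for attachment sites of day 24 over day 13 became 0 with normexp and with slide as a block, and 0 to 1 with 1 array left out. Where no member was called, 1 was for day 13 attachment sites over non-pregnant with quantile normalization or the authors' values, 2 without the arrays that stood apart and 0 to 1 with 1 array left out. For day 13 inter-sites over non-pregnant 1 was called without the arrays that stood apart, and for attachment sites of day 18 over day 13 it was 3, or 0 to 3 with 1 array left out. In the other comparisons, the change of the site difference between days included (added after the data were seen), 0 members were called under the alternatives run. Where the arrays left out are of other groups, both means stay as they are, and the shared spread and the adjustment differ. What lay behind the changes was otherwise not tested, and fits with arrays left out also rest on fewer arrays. Normexp moved the median of all probes to 0.26 for attachment sites of day 24 over day 18, so that the CDH1 and CDS1 values of 1.49 and 0.99 under it stand against that shift.

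Probes called, out of 30091, varied more. Day 13 attachment sites over non-pregnant called 534, but 27 with normexp, 181 with no filter, 0 with slide as a block, 1787 without the arrays that stood apart and 0 to 657 with 1 array left out. For day 13 inter-sites over non-pregnant these were 136, 0, 7, 0, 1007 and 0 to 613, with 90 and 91 in the authors' values and with quantile normalization. Attachment sites of day 18 over day 13 called 540, with 113, 205, 12, 1561 and 9 to 3730 in the same order. Attachment sites of day 24 over day 18 called 1690, with 214 under normexp, 394 with slide as a block, 2663 without the arrays that stood apart and 261 to 1623 with 1 array left out. Day 24 over day 13 at attachment sites called 4715, with 1080 under normexp and 2093 to 3747 with 1 array left out.

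Inter-sites of day 18 over day 13 called 2, with 0 under normexp and with slide as a block, 5 without the arrays that stood apart and 0 to 6 with 1 array left out. Inter-sites of day 24 over day 18 called 43, with 6 under normexp, 27 with quantile normalization, 26 in the authors' values, 7 with no filter, 1 with slide as a block, 196 without the arrays that stood apart and 6 to 70 with 1 array left out. For inter-sites of day 24 over day 13 these were 74, 19, 32, 33, 7, 10, 183 and 0 to 224. Attachment site over inter-site on day 24 called 84, with 48 under normexp, 50 with no filter, 22 with slide as a block, 27 without the arrays that stood apart and 12 to 308 with 1 array left out. On day 18 it called 0, with 1 under quantile normalization and in the authors' values and 0 to 3 with 1 array left out, and on day 13 it called 0 throughout. The mean over the 3 days called 1, with 2 under quantile normalization and in the authors' values, 0 under normexp, with no filter and with slide as a block, and 0 to 67 with 1 array left out. The change of the site difference between day 18 and day 24 called 3, with 0 under normexp, with slide as a block and without the arrays that stood apart, and 0 to 18 with 1 array left out. Between day 13 and day 18 it called 0, or 0 to 1 with 1 array left out.

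Of 27 pairs of same-numbered arrays 11 had deviations correlated at r over 0.1, in a range of -0.275 to 0.490. No 2 groups had all 3 pairs over 0.1 (the day 18 sites were at 0.227, 0.099 and 0.490), so the numbers were not taken to pair samples. The replicate block called 1 member, CLDN7, for attachment sites of day 18 over day 13 (adjusted p = 0.0486) and added CLDN7 for day 24 over day 18 (adjusted p = 0.0475). With that block 0 probes were called for inter-sites of day 18 over day 13, 19 for day 24 over day 18 and 23 for day 24 over day 13, 0 for the mean over days and 1 for the change between day 18 and day 24.

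With 3 arrays a group, 1 array decided a call, as day 18 attachment-site replicate 3 did for EPCAM and CLDN7. Few arrays of a comparison shared a slide, and 1 slide held a single array. In whole-tissue RNA, conceptus tissue, smooth muscle content and sow cannot be told apart from site and day. The 7 genes were well above background on all 21 arrays. With normexp background correction the rises from day 18 to day 24 at attachment sites were smaller, 1.49 for CDH1 and 0.99 for CDS1. Whether background limited the values of the 7 genes was not tested.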
